A study of Mus musculus with 18 samples.

Results

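CD4+ and CD4-CD8- type 2 conventional dendritic cells (cDC2) of wild-type (WT) mouse spleen were compared by RNA sequencing. The comparison takes 6 of the 18 libraries of the series, 3 of each population, chosen by genotype and sorted population as the labels give them. All mice were C57BL/6. Cells were freed from the spleen by enzymes, enriched on magnetic beads for CD11c, and sorted alive as CD11c+ cells that also carried MHC class II. CD4+ cDC2 carried CD4, and CD4-CD8- cDC2 carried neither CD4 nor CD8. The same pair of populations from ADAM10-deficient (KO) mice is described for reference, with 3 libraries each. The CD8+ cDC1 of WT mice (3 libraries) serve likewise. These and the CD8+ cDC1 of KO mice (3 libraries) also entered the main fit, so that all 18 libraries set its estimate of the spread. The labels give no age, do not say in which cells ADAM10 was removed, and do not say whether the libraries of a group came from separate animals. P-values of the main fit therefore rest on the spread among libraries within each group of the series, and that spread may be technical only.

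cDC2 are antigen-presenting cells that mainly prime CD4 T cells. In the spleen they fall into an ESAM-high subset, which lies at the marginal zone bridging channels and depends on Notch2 and on the lymphotoxin beta receptor, and an ESAM-low subset, which expresses genes shared with monocytes. Most ESAM-high cells carry CD4, so that CD4 is often used as a surface marker of the subset. cDC1 are the other main lineage, which takes up dead cells and presents their antigens to CD8 T cells. Levels are given as CPM, the counts of a gene scaled to a common library total, and fold changes as log2 of CD4+ over CD4-CD8-, with the standard error (SE), so that a negative value means a lower level in CD4+ cells. A gene was called at a Benjamini-Hochberg adjusted p under 0.05 in edgeR's quasi-likelihood test, and adjusted p-values come from that test unless limma is named. Parentheses after the levels of a gene hold its log2 fold change ± SE and adjusted p, levels joined by "against" give CD4+ first, and gene positions are those of the GENCODE annotation of GRCm38.

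Adam10 was at 80.6 to 138 CPM in the WT libraries of both populations and at 41.6 to 47.4 CPM in the ADAM10-deficient ones, so that transcript remained in the libraries labelled KO. Cd4 and Cd8a, on which the cells were sorted, are given as levels only. Cd4 was at 450, 476 and 403 CPM in CD4+ and 5.98, 6.29 and 6.93 CPM in CD4-CD8- libraries. Cd8a was at 1.67 to 1.99 CPM in CD4+ and 5.37 to 6.40 CPM in CD4-CD8- libraries, against a mean of 1060 CPM in CD8+ cells. Both levels follow the labels. The 6 libraries held 12358884 to 19557469 estimated counts. Their first principal component took 61.4% of the variance and separated the populations.

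Of 13355 genes tested, 2245 were called, which is 16.8% of them. CD4+ cells had 956 genes called higher (7.16% of the genes tested) and 1289 called lower (9.65%). Each list count of the WT contrast below is to be read beside these 2 shares. The sizes were unequal. Among called genes with a mean of at least 5 CPM in the higher population and libraries that did not overlap, 84 were at least 2-fold higher and 382 at least 2-fold lower in CD4+ cells. At 8-fold or more, 0 such genes were higher and 137 were lower. These 137 held 25 NK cell markers, 16 T cell markers and 3 cDC1 genes of the lists used here. The median log2 fold change of all genes was 0.02. On log2(TPM + 1), where TPM is the transcript abundance corrected for length and library total, that median lay at -0.12, and 239 of 1625 called genes (14.7%) were higher, against 42.6% in the count test.

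**Figure D1:**
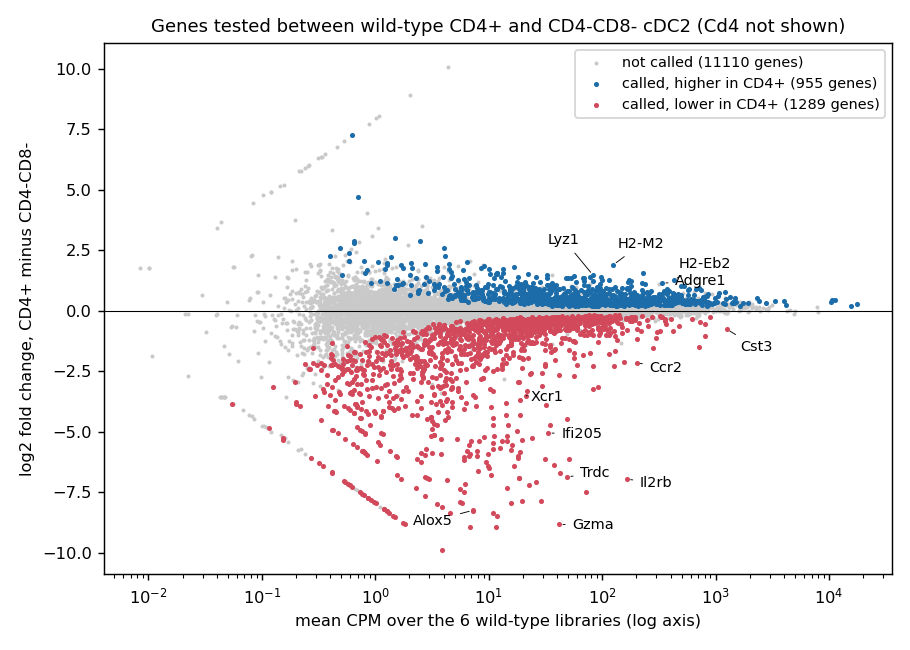
Log2 fold change of CD4+ over CD4-CD8- WT cells against mean CPM (log axis) for each gene tested, with called genes in colour and Cd4 not shown. Of the genes with names in the plot, Gzma lies lowest, at -8.83, and H2-M2 highest, at 1.90.

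MHC class II presentation genes were mostly higher in CD4+ cells. Of 14 tested, 8 were called higher and 1 lower, with a median of 0.34. H2-Eb2 (chr17:34325665-34341412), a second E beta chain gene, was at 636, 619 and 571 CPM in CD4+ and 222, 291 and 234 CPM in CD4-CD8- libraries (1.29 ± 0.14, adjusted p = 1e-05). Every CD4+ library lay above every CD4-CD8- library. H2-DMb2 (chr17:34143307-34151555), a beta chain of the peptide exchanger DM, was at 1003, 960 and 899 CPM against 516, 587 and 488 CPM (0.85 ± 0.11, adjusted p = 5.6e-05). The chains of DO, which restrains DM, were also higher. H2-Oa was at 526 to 529 CPM against 291 to 333 CPM (0.74 ± 0.11, adjusted p = 0.00013) and H2-Ob at 323 to 352 CPM against 226 to 228 CPM (0.58 ± 0.08, adjusted p = 7.1e-05). In bulk libraries like these, fewer cells of a type and less RNA per cell cannot be told apart.

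The abundant classical chains differed less. H2-Eb1 was at 12035 to 12460 CPM against 8223 to 9833 CPM (0.45 ± 0.08, adjusted p = 0.00075), H2-Ab1 at 12786 to 13154 CPM against 8916 to 10138 CPM (0.43 ± 0.10, adjusted p = 0.0084) and H2-Aa at 11449 to 11968 CPM against 8492 to 9421 CPM (0.38 ± 0.07, adjusted p = 0.0007). Cd74, the invariant chain, was at 18536 to 19707 CPM against 14642 to 17285 CPM (0.30 ± 0.07, adjusted p = 0.0039). None of these 4 was called on log2(TPM + 1), where they had 0.24, 0.20, 0.18 and 0.06 in the same order, and 5 of the 14 genes were called there. H2-Ab1 lost its call without CD4-CD8- library 3 (adjusted p = 0.0506). H2-DMb1, the other DM beta chain, was lower in CD4+ cells, at 291 to 318 CPM against 378 to 444 CPM (-0.44 ± 0.09, adjusted p = 0.0024). H2-DMb1 and H2-DMb2 are close copies, so the division of shared reads between them is uncertain. Both populations were sorted on MHC class II protein. MHC class I presentation genes had 1 of 22 called higher and 0 lower, and 6 were called with replicate number as a block.

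Promoters are shown for 4 of these genes, which lie in one gene cluster and differed in the same direction or, for H2-DMb1, in the opposite one. H2-Aa, H2-Oa and H2-Ob, which were also higher, meet that description too and are not shown. MHC class II promoters hold an X box, bound by RFX proteins, and a Y box, bound by NF-Y, on which the coactivator CIITA assembles. The sequences are the 250 bases before the start site in RefSeq (GRCm38.p6), 5′ to 3′ on the plus strand. They lie at chr17:34325425-34325674 (H2-Eb2), chr17:34144999-34145248 (H2-DMb2), chr17:34152941-34153190 (H2-DMb1) and chr17:34305617-34305866 (H2-Eb1). Capitals mark the Y box core TGATTGG and the X box core, which was searched as AAC, any 2 bases, ATG, any 1 base and TG. The letters were chosen after the sequences had been read, and both strands were searched. The cores do not overlap each other.
H2-Eb2: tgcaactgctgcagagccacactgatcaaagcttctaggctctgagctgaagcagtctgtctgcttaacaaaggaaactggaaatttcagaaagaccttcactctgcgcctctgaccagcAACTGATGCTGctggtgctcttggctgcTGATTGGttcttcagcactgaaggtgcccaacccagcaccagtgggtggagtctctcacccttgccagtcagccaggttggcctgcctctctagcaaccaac
H2-DMb2: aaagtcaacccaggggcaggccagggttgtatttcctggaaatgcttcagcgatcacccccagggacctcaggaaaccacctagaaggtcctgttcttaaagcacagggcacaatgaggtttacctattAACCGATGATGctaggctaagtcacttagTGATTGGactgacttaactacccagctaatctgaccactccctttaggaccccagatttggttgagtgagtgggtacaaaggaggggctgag
H2-DMb1: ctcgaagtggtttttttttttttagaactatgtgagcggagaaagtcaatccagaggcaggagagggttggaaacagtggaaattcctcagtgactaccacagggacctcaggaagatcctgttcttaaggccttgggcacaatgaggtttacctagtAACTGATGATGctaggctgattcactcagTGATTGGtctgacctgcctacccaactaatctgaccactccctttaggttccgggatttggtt
H2-Eb1: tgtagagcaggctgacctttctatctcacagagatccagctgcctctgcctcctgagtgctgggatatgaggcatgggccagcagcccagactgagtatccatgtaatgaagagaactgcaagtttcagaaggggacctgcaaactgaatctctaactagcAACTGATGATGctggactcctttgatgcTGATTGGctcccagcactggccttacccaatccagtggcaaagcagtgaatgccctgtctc
The X box core began 130 bases before the start in H2-Eb2, 121 in H2-DMb2, 92 in H2-DMb1 and 89 in H2-Eb1. The Y box core began 102, 92, 63 and 61 bases before the start in the same order. H2-DMb1, which was lower in CD4+ cells, held both cores, as did the 3 genes that were higher. Of the 14 genes tested, 11 had a promoter in the search, of which 7 held the Y box core and 5 the X box core. H2-Ab1, Cd74 and Ciita had no promoter in the search, so whether they hold either core was not tested. The search did not take entries of every chromosome, so a gene may be absent because the search left it out. The counts of 7 and 5 therefore describe only the 11 genes searched. Among the genes not shown, H2-Ob held both cores, while H2-Aa and H2-Oa held the Y box core without the X box core. Of all 32851 promoters of this length, 7.23% held the Y box core and 0.466% the X box core.

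Genes typical of ESAM-high cDC2 were in part higher in CD4+ cells. Of 12 tested, 4 were called higher (33.3%) and 0 lower, with a median log2 fold change of 0.68, and 7 were called with replicate number as a block. Esam (chr9:37528078-37538319), the adhesion molecule that names the subset, was at 74.7, 73.6 and 79.6 CPM in CD4+ and 24.3, 32.0 and 33.4 CPM in CD4-CD8- libraries (1.34 ± 0.22, adjusted p = 0.00036). The CD4+ libraries were all above the CD4-CD8- libraries, and the CD8+ mean was 9.03 CPM. On transcript abundance it did not pass (0.84 on log2(TPM + 1), limma adjusted p = 0.479), with 163 ± 27.9 TPM in CD4+ and 92.2 ± 26.8 TPM in CD4-CD8- cells (SD, n = 3 each). Clec4a4 (chr6:122990367-123024105), the inhibitory lectin recognised by the antibody 33D1, was at 121, 131 and 121 CPM against 63.7, 69.3 and 63.3 CPM (0.93 ± 0.14, adjusted p = 0.00017), with a CD8+ mean of 4.11 CPM. For both genes CD4-CD8- cells thus lay between the other populations. Adam23, a member of the ADAM family without protease activity, was at 298 to 339 CPM against 126 to 167 CPM (1.12 ± 0.14, adjusted p = 3.4e-05). Cd81, a tetraspanin, was at 107 to 128 CPM against 51.7 to 79.9 CPM (0.86 ± 0.15, adjusted p = 0.00073). Both had CD8+ means above the CD4-CD8- level, at 287 and 325 CPM.

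Dtx1, Hes1, Mmp9 and Tbx21, also on the list of ESAM-high genes, did not pass the main test. Dtx1, a Notch target, was at 328, 356 and 344 CPM in CD4+ and 249, 259 and 265 CPM in CD4-CD8- libraries. These libraries did not overlap, but the log2 fold change of 0.41 ± 0.44 did not pass (adjusted p = 0.61). Hes1, a transcriptional repressor and Notch target, was at 32.2 to 47.9 CPM against 23.3 to 30.5 CPM (0.57 ± 0.32, adjusted p = 0.27). Mmp9, a secreted protease, was at 55.2 to 97.7 CPM against 44.1 to 52.4 CPM (0.74 ± 0.25, adjusted p = 0.053). In the fit restricted to the 6 libraries, where the spread of the other groups does not enter, Dtx1 (0.38, adjusted p = 0.00498), Hes1 (0.53, adjusted p = 0.0457) and Mmp9 (0.71, adjusted p = 0.0369) passed. Tbx21, which encodes T-bet, was at 42.1 to 53.8 CPM in CD4+ and 45.9 to 78.7 CPM in CD4-CD8- libraries (-0.25 ± 0.39, adjusted p = 0.74), and the libraries overlapped.

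ESAM-low genes were divided. Of 18 tested, 8 were called lower in CD4+ cells and 2 higher, with a median of -0.19. Ccr2 (chr9:124101950-124113557), the chemokine receptor that brings monocytes out of the bone marrow, was at 70.5, 81.3 and 70.7 CPM in CD4+ and 332, 329 and 322 CPM in CD4-CD8- libraries (-2.14 ± 0.11, adjusted p = 3.4e-09). The CD8+ mean lay between, at 141 CPM. Clec10a (chr11:70156197-70170834), a lectin for galactose-type sugars, was at 21.6, 22.1 and 13.0 CPM against 58.5, 54.6 and 38.8 CPM (-1.42 ± 0.22, adjusted p = 0.00028). Ly6c2, which encodes a Ly6C antigen, was at 31.9 to 33.6 CPM against 53.7 to 99.0 CPM (-1.25 ± 0.25, adjusted p = 0.0022). Cx3cr1, the fractalkine receptor, was at 70.4 to 84.8 CPM against 146 to 162 CPM (-0.99 ± 0.19, adjusted p = 0.0015). Clec12a, an inhibitory lectin, was at 68.9 to 72.5 CPM against 106 to 119 CPM (-0.65 ± 0.14, adjusted p = 0.0049). Cd209a, a homologue of DC-SIGN, was at 201 to 276 CPM against 357 to 481 CPM (-0.85 ± 0.24, adjusted p = 0.024), and lost its call without CD4+ library 1 or 3 or CD4-CD8- library 1 or 2 (highest adjusted p = 0.0923).

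Cd7 and Mgl2 were also called lower and Gfra2 higher, all 3 named after their values were seen. Lyz1, a lysozyme gene, was higher in CD4+ cells, at 117, 121 and 128 CPM against 42.4, 49.3 and 39.7 CPM (1.48 ± 0.17, adjusted p = 1.5e-05). Its near-identical neighbour Lyz2 was at 1725 to 2054 CPM against 1312 to 1618 CPM and was not called (0.35 ± 0.13, adjusted p = 0.083). Reads shared by the pair were divided by the quantifier, so these values are uncertain. Csf1r, the receptor for CSF-1, was at 347 to 424 CPM against 377 to 447 CPM and was not called (-0.12 ± 0.15, adjusted p = 0.66). Monocyte markers had 1 of 24 called higher and 9 lower, while their summed level was higher in CD4+ libraries, at 6635 to 7493 CPM against 6296 to 6560 CPM. Among them Fn1, the matrix protein fibronectin, was at 0.467 to 1.57 CPM against 8.28 to 12.6 CPM (-3.29 ± 0.55, adjusted p = 0.00051).

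**Figure D2:**
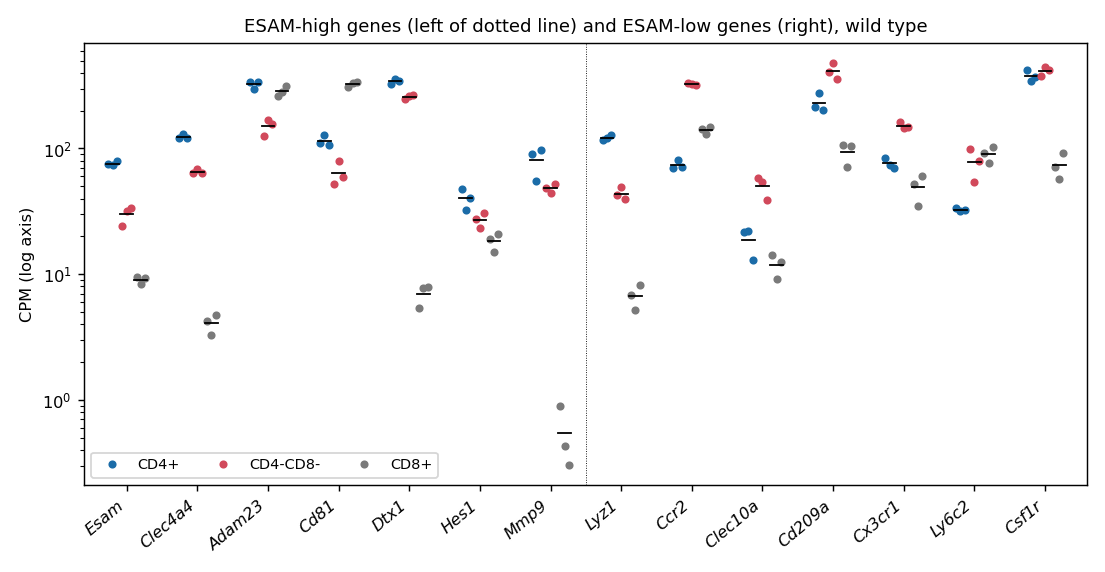
CPM (log axis) of ESAM-high and ESAM-low genes in the 3 WT populations, each point 1 library and each bar the mean of 3. Esam, Clec4a4, Adam23, Cd81 and Lyz1 lie higher in all 3 CD4+ than in all 3 CD4-CD8- libraries. So do Dtx1, Hes1 and Mmp9, which did not pass the main test. Ccr2, Clec10a, Cd209a, Cx3cr1 and Ly6c2 lie lower, while Csf1r overlaps.

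Notch receptors signal after cleavage by ADAM10 and gamma-secretase, which frees a fragment that binds RBPJ. Of 9 Notch target genes tested, 0 were called higher and 3 lower (Notch1, Il2ra and, under 5 CPM, Heyl), with a median of -0.49. Heyl was named after its values were seen. The summed level of the list went the other way, at 517 to 524 CPM in CD4+ and 417 to 424 CPM in CD4-CD8- libraries, with most of it from Dtx1. Its members Dtx1, Hes1 and Gpr183 passed as higher in the restricted fit (0.38, 0.53 and 0.39). Notch1, which is a receptor and a target, was at 3.81, 3.40 and 4.14 CPM in CD4+ and 24.5, 17.6 and 18.1 CPM in CD4-CD8- libraries (-2.41 ± 0.16, adjusted p = 7.3e-08), and did not pass on transcript abundance (-1.55 on log2(TPM + 1), limma adjusted p = 0.166). Il2ra, the interleukin-2 receptor alpha chain, was at 0.604 to 0.935 CPM against 6.09 to 8.10 CPM (-3.09 ± 0.32, adjusted p = 4.7e-06). T cells and NK cells also express Notch1, and activated T cells Il2ra. Markers of those cells differed between the populations, with summed levels of 343 to 377 CPM in CD4+ and 1267 to 2290 CPM in CD4-CD8- libraries for NK cells and of 122 to 133 CPM and 414 to 735 CPM for T cells. Their part in the results was not tested.

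Of 30 Notch receptors, ligands and machinery genes, 1 was called higher (3.33%, against 7.16% of all genes) and 5 lower (16.7%, against 9.65%), and 3 were called on log2(TPM + 1). Jag1, a Notch ligand, was at 16.0 to 22.9 CPM against 8.10 to 10.9 CPM (1.02 ± 0.20, adjusted p = 0.0017). Psen2, a catalytic subunit of gamma-secretase, was at 13.0 to 16.5 CPM against 23.6 to 26.8 CPM (-0.80 ± 0.14, adjusted p = 0.00072). Notch2 was at 207 to 233 CPM against 215 to 265 CPM (-0.14 ± 0.11, adjusted p = 0.47) and Rbpj at 175 to 181 CPM against 184 to 194 CPM (-0.10 ± 0.13, adjusted p = 0.69). Adam10 was at 82.9, 80.6 and 130 CPM in CD4+ and 90.9, 88.3 and 138 CPM in CD4-CD8- libraries (-0.12 ± 0.22, adjusted p = 0.79). In both populations library 3 had the highest Adam10 level. Nrarp, a feedback regulator of Notch, was at 1.52 to 1.99 CPM against 1.32 to 4.11 CPM (-0.71 ± 0.57, adjusted p = 0.46).

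The lymphotoxin beta receptor activates the kinase NIK and, through it, RelB. Of 16 genes of this pathway, 3 were called higher in CD4+ cells (18.8%, against 7.16% of all genes) and 0 lower, with a median of 0.26. Relb was at 457 to 518 CPM against 336 to 395 CPM (0.45 ± 0.14, adjusted p = 0.029). Map3k14, which encodes NIK, was at 123 to 155 CPM against 98.7 to 115 CPM (0.40 ± 0.11, adjusted p = 0.019). Traf2, an adaptor, was at 69.5 to 72.7 CPM against 54.0 to 59.7 CPM (0.31 ± 0.06, adjusted p = 0.0025). With the block 6 of the 16 were called, and 0 on log2(TPM + 1). Relb lost its call without CD4+ library 1 or 2 or CD4-CD8- library 1 or 3 (highest adjusted p = 0.123), and Map3k14 without CD4+ library 1 or CD4-CD8- library 1 or 3 (highest adjusted p = 0.104). Ltbr, the receptor, was at 38.4 to 42.1 CPM against 34.9 to 39.1 CPM (0.14 ± 0.09, adjusted p = 0.32). Gpr183, the oxysterol receptor that places cDC2 in the bridging channels, was at 114 to 129 CPM against 90.8 to 92.5 CPM (0.42 ± 0.18, adjusted p = 0.12), without overlap, and passed in the fit restricted to the 6 libraries (0.39, adjusted p = 0.00593).

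Transcription factors of cDC had 4 of 45 called higher (8.89%, near the 7.16% of all genes) and 10 lower (22.2%, against 9.65%). Irf4, which drives cDC2 development, was at 168, 134 and 145 CPM against 93.9, 91.0 and 108 CPM (0.61 ± 0.16, adjusted p = 0.016). It lost its call without CD4+ library 1 or CD4-CD8- library 1 or 2 (highest adjusted p = 0.0795) and on transcript abundance (0.54 on log2(TPM + 1), limma adjusted p = 0.077). Irf8, which drives cDC1 development, was at 155, 130 and 140 CPM against 472, 353 and 418 CPM (-1.55 ± 0.15, adjusted p = 2.1e-06), with a CD8+ mean of 2652 CPM. Ikzf3, the Ikaros family member Aiolos, was at 2.38 to 3.14 CPM against 27.0 to 43.7 CPM (-3.70 ± 0.36, adjusted p = 2.4e-06). Bach2, a transcriptional repressor of lymphocytes, was at 1.93 to 3.27 CPM against 7.61 to 15.5 CPM (-2.26 ± 0.31, adjusted p = 8.1e-05). Zbtb46, which marks cDC, was at 83.0 to 87.7 CPM against 65.0 to 73.6 CPM (0.32 ± 0.07, adjusted p = 0.0068), but did not pass on transcript abundance (0.02 on log2(TPM + 1), limma adjusted p = 0.927). Klf4 (0.24 ± 0.24, adjusted p = 0.57) and Zeb2 (-0.25 ± 0.22, adjusted p = 0.51), which take part in cDC2 development, did not pass.

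Among pan-cDC genes, 6 of 15 were called higher and 2 lower, and 3 were called on log2(TPM + 1). Itgax, which encodes CD11c and took part in the gate, was at 1549 to 1678 CPM against 1169 to 1311 CPM (0.36 ± 0.10, adjusted p = 0.021). It lost its call without CD4+ library 3 or CD4-CD8- library 1 or 3 (highest adjusted p = 0.1) and on transcript abundance (0.13 on log2(TPM + 1), limma adjusted p = 0.698). Kit, the receptor for stem cell factor, was at 479 to 506 CPM against 305 to 356 CPM (0.56 ± 0.11, adjusted p = 0.002), and did not pass there (0.34 on log2(TPM + 1), limma adjusted p = 0.143). Flt3, the receptor for the growth factor that sustains cDC, was at 360 to 399 CPM against 401 to 422 CPM (-0.11 ± 0.07, adjusted p = 0.32). Itgam, which encodes CD11b, overlapped, at 132 to 142 CPM against 125 to 144 CPM (0.05 ± 0.17, adjusted p = 0.9). Sirpa, the inhibitory receptor used to gate cDC2, was at 974 to 996 CPM against 567 to 751 CPM (0.62 ± 0.17, adjusted p = 0.019). It lost its call without CD4+ library 1 or CD4-CD8- library 1 or 3 (highest adjusted p = 0.0967) and on transcript abundance (0.50 on log2(TPM + 1), limma adjusted p = 0.242).

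Of 26 Toll-like receptor genes and adaptors, 8 were called higher (30.8%) and 3 lower (11.5%), and 5 were called on log2(TPM + 1). Tlr7, a sensor of single-stranded RNA, was at 120, 113 and 118 CPM in CD4+ and 39.2, 53.7 and 55.0 CPM in CD4-CD8- libraries (1.25 ± 0.16, adjusted p = 4.2e-05), and did not pass on transcript abundance (0.89 on log2(TPM + 1), limma adjusted p = 0.0957). Tlr5, the flagellin receptor, was at 24.0 to 31.4 CPM against 12.1 to 15.3 CPM (1.07 ± 0.18, adjusted p = 0.00048). Tlr3, a sensor of double-stranded RNA prominent in cDC1, was at 4.23 to 6.19 CPM against 19.7 to 25.6 CPM (-2.17 ± 0.21, adjusted p = 2.1e-06). Tlr12, a sensor of parasite profilin, was at 9.69 to 10.7 CPM against 23.5 to 32.4 CPM (-1.52 ± 0.13, adjusted p = 7.1e-07). The CD8+ means of the pair that was lower were 230 and 173 CPM.

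C-type lectin receptor genes had 2 of 36 called higher and 13 lower in CD4+ cells. Klrb1b, a lectin-like receptor of NK cells and some myeloid cells, was at 5.58 to 6.59 CPM against 42.1 to 70.0 CPM (-3.12 ± 0.28, adjusted p = 1.1e-06). Cd209e and Cd209d, relatives of DC-SIGN, were at 1.00 to 1.39 CPM against 8.63 to 19.0 CPM (-3.56 ± 0.43, adjusted p = 2.1e-05) and at 7.08 to 9.67 CPM against 18.5 to 45.1 CPM (-1.97 ± 0.30, adjusted p = 0.00018). The CD8+ means of Cd209e and Cd209d were higher still, at 27.03 and 68.85 CPM, while that of Klrb1b was 1.87 CPM. Fc receptor genes had 1 of 13 called higher (7.69%, near the 7.16% of all genes) and 5 lower (38.5%, against 9.65%). Fcgr2b, the inhibitory IgG receptor, was at 25.0 ± 1.82 CPM against 77.1 ± 14.3 CPM (SD, n = 3 libraries each). The libraries did not overlap, and the log2 fold change was -1.62 ± 0.15 (adjusted p = 1.8e-06). Fcgr3, an activating IgG receptor, was at 8.34 to 11.1 CPM against 16.6 to 26.5 CPM (-1.06 ± 0.23, adjusted p = 0.0041). The higher one was Fcrl1, an Fc receptor-like gene of B cells, at 66.2 to 67.4 CPM against 39.1 to 44.2 CPM (0.66 ± 0.18, adjusted p = 0.019), which lost its call without CD4+ library 1 or CD4-CD8- library 1 or 3 (highest adjusted p = 0.0853) and on transcript abundance (0.54 on log2(TPM + 1), limma adjusted p = 0.077).

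SIRP and inhibitory receptor genes had 9 of 37 called higher and 6 lower. Tarm1, an activating receptor of myeloid cells, was at 14.9 to 18.6 CPM against 4.77 to 6.87 CPM (1.53 ± 0.24, adjusted p = 0.00051). Cd300lg, a CD300 family member, was at 4.17 to 5.07 CPM against 19.2 to 23.8 CPM (-2.21 ± 0.21, adjusted p = 2.2e-06). Integrin and adhesion genes had 6 of 39 called higher and 14 lower. Itgad, the integrin alpha D chain, was at 5.38 to 8.14 CPM against 23.6 to 51.5 CPM (-2.59 ± 0.28, adjusted p = 7.8e-06).

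Of 25 genes of migration and positioning, 14 were called lower in CD4+ cells (56.0%) and 2 higher, with a median of -0.98. The list holds mostly receptors, but also the oxysterol enzymes Cyp7b1 and Hsd3b7, which are among the 14, and the cytokine subunit Ebi3, which was not called. These 3 were named after their values were seen. Besides Ccr2 the receptors included Cxcr3, the receptor for interferon-induced chemokines, at 3.54 to 5.50 CPM against 16.3 to 27.9 CPM (-2.30 ± 0.23, adjusted p = 3.5e-06). Cxcr6, found on NK and T cells, was at 0.134 to 0.302 CPM against 6.80 to 19.5 CPM (-6.02 ± 0.87, adjusted p = 0.00012). NK and T cells carry Cxcr3 as well, and their part was not tested.

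Cytokine genes had 2 of 23 called higher and 2 lower (8.70% each), near the shares of all genes. Chemokine genes had 3 of 19 called higher (15.8%) and 6 lower (31.6%). Tnf was at 48.1, 42.8 and 52.7 CPM in CD4+ and 17.3, 13.7 and 19.9 CPM in CD4-CD8- libraries (1.49 ± 0.23, adjusted p = 0.00027), without overlap. Ccl3 and Ccl4, inflammatory chemokines, were at 72.2 to 91.6 CPM against 32.4 to 40.2 CPM (1.20 ± 0.23, adjusted p = 0.0018) and at 131 to 159 CPM against 47.3 to 77.6 CPM (1.29 ± 0.30, adjusted p = 0.0058). Ccl22, which attracts cells bearing CCR4, was lower in CD4+ cells, at 12.0 to 16.4 CPM against 27.9 to 45.0 CPM (-1.32 ± 0.22, adjusted p = 0.00053). Tnfsf10, the death ligand TRAIL, was at 3.69 to 4.72 CPM against 23.8 to 40.1 CPM (-2.94 ± 0.24, adjusted p = 2.9e-07).

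Immediate early and stress genes, which are switched on within minutes of a stimulus, had 8 of 38 called higher and 1 lower, with a median of 0.38. Egr3 was at 450, 305 and 277 CPM against 128, 110 and 110 CPM (1.57 ± 0.33, adjusted p = 0.0035). Egr2 was at 112 to 159 CPM against 46.6 to 66.1 CPM (1.41 ± 0.23, adjusted p = 0.00041), and Ier3, a regulator of cell survival, at 36.5 to 56.1 CPM against 17.0 to 19.7 CPM (1.35 ± 0.22, adjusted p = 0.00036). On log2(TPM + 1), 4 of the 38 were called, and 22 with replicate number as a block.

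Costimulatory and checkpoint genes had 4 of 27 called higher and 7 lower. Pdcd1lg2, the checkpoint ligand PD-L2, was at 24.4 to 32.8 CPM against 9.85 to 14.1 CPM (1.18 ± 0.25, adjusted p = 0.0035), and Cd274, the related PD-L1, at 217 to 242 CPM against 104 to 130 CPM (0.95 ± 0.19, adjusted p = 0.0025). Tnfsf9, the ligand of 4-1BB, was at 9.81 to 16.0 CPM against 26.2 to 41.9 CPM (-1.28 ± 0.23, adjusted p = 0.00097). Cd84, an adhesion receptor of the SLAM family, was at 7.41 to 8.28 CPM against 17.7 to 29.4 CPM (-1.69 ± 0.24, adjusted p = 0.00013). DC maturation genes had 6 of 30 called in each direction, and 6 in all on log2(TPM + 1).

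Metabolic and housekeeping lists were counted in the same way and are given beside the shares of all genes, 7.16% higher and 9.65% lower. Oxidative phosphorylation genes had 0 of 40 called in edgeR, 4 at an unadjusted p under 0.05, 1 in DESeq2, 2 with replicate number as a block and 5 on log2(TPM + 1). Cell cycle genes had 5 of 58 called higher (8.62%) and 1 lower (1.72%), with 17 called under the replicate block and 2 on log2(TPM + 1). Among them Ccnd1, which encodes cyclin D1, was at 1363 to 1713 CPM against 782 to 1033 CPM (0.77 ± 0.11, adjusted p = 0.00011). Cholesterol synthesis and LXR genes had 0 of 32 called higher and 8 lower (25.0%). Glycolysis genes had 2 of 26 higher (7.69%) and 4 lower (15.4%), with Pfkp, a phosphofructokinase, at 31.0 to 32.4 CPM against 66.4 to 78.8 CPM (-1.17 ± 0.14, adjusted p = 1.3e-05). Interferon-stimulated genes had 4 of 66 higher (6.06%) and 6 lower (9.09%), near the background, and 23 were called with the block. Their summed level was highest in library 2 of both populations, at 5446 CPM in CD4+ and 5462 CPM in CD4-CD8- cells, against 4401 to 4506 CPM in the other libraries. Unfolded protein response genes had 1 of 22 called in each direction, and 5 with the block. Lysosome and cathepsin genes had 8 of 35 higher (22.9%) and 6 lower (17.1%), and 8 were called on log2(TPM + 1). Ctsl, cathepsin L, was at 33.7 to 42.4 CPM against 16.0 to 19.5 CPM (1.17 ± 0.18, adjusted p = 0.00028), and Cst3, the protease inhibitor cystatin C, at 870 to 1039 CPM against 1462 to 1687 CPM (-0.76 ± 0.15, adjusted p = 0.002).

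cDC1 genes were at a low but measurable level in CD4-CD8- cells. Of 23 tested, 0 were called higher and 15 lower in CD4+ cells (65.2%), with a median of -1.52. Xcr1, the chemokine receptor that marks cDC1, was at 3.99, 3.55 and 2.74 CPM in CD4+ and 39.1, 38.1 and 40.6 CPM in CD4-CD8- libraries, against a mean of 746 CPM in CD8+ cells (-3.51 ± 0.28, adjusted p = 3e-07). Clec9a, a receptor for dead cells, was at 24.7 ± 1.48 CPM against 62.1 ± 6.37 CPM (SD, n = 3 libraries each), a log2 fold change of -1.33 ± 0.13 (adjusted p = 2.7e-06). Ifi205, an interferon-inducible gene, was at 1.57 to 2.54 CPM against 59.7 to 69.1 CPM (-5.05 ± 0.24, adjusted p = 2.4e-09). Naaa, a lipid amidase, was at 57.6 to 60.1 CPM against 243 to 262 CPM (-2.12 ± 0.16, adjusted p = 1.4e-07). The order CD4+ below CD4-CD8- below CD8+ held for 21 of the 23 means, with Wdfy4 and Batf3 as the exceptions. The median member reached 13.6% of its CD8+ level in CD4-CD8- cells and 5.34% in CD4+ cells. The summed level was 1885 to 2160 CPM in CD4+, 2775 to 3126 CPM in CD4-CD8- and 15270 to 17800 CPM in CD8+ libraries, and the part of single cDC1 within the CD4-CD8- gate was not tested.

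**Figure D3:**
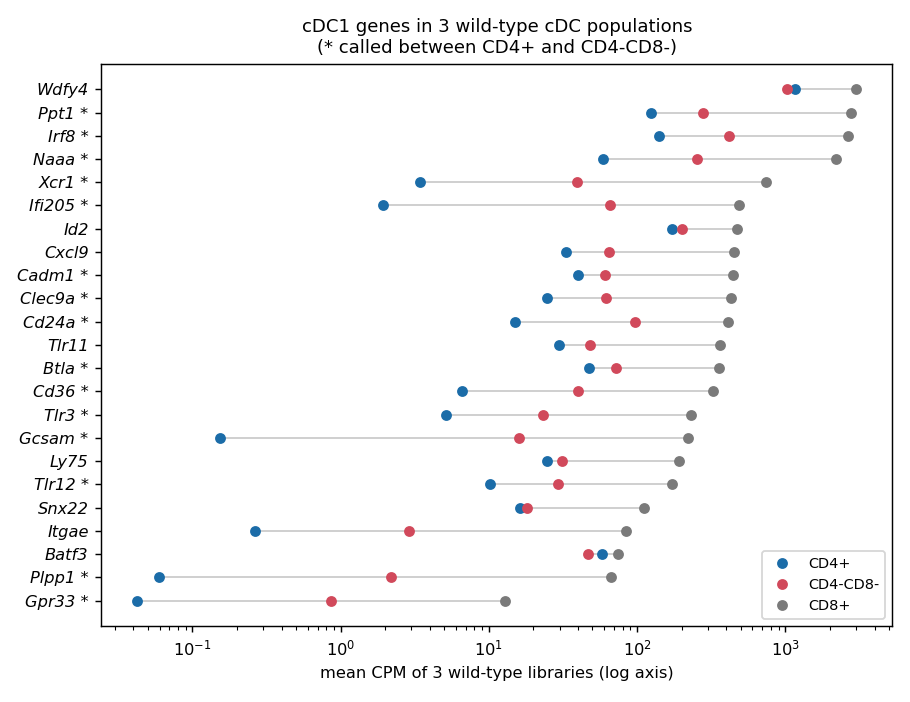
Mean CPM (log axis) of each cDC1 gene tested in the 3 WT populations, 3 libraries each, ordered by the CD8+ level. In 21 of 23 genes CD4+ cells are lowest and CD8+ cells highest, and starred genes were called between CD4+ and CD4-CD8- cells.

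Genes of NK cells stood out by size. Of 34 NK cell markers tested, 30 were called lower in CD4+ cells and 0 higher, with a median of -6.64. Il2rb, the interleukin-2 receptor beta chain, was at 3.20, 2.33 and 2.34 CPM in CD4+ and 484, 235 and 266 CPM in CD4-CD8- libraries (-6.97 ± 0.54, adjusted p = 2.1e-07). Ncr1, the activating receptor NKp46, was at 0.200 to 0.725 CPM against 33.7 to 78.6 CPM (-7.09 ± 0.71, adjusted p = 3.3e-06). Eomes, a transcription factor of NK cells, was at 0 to 0.302 CPM against 23.8 to 54.6 CPM (-7.88 ± 0.66, adjusted p = 4.5e-07). Gzma, granzyme A, was at 0.483, 0.0507 and 0 CPM against 175, 54.1 and 21.8 CPM (-8.83 ± 1.34, adjusted p = 0.00019). CD4-CD8- library 1 had the highest level of each of these 4 genes.

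Several of the genes with the largest differences had 1 to 3 counts in all CD4+ libraries together, so that ratios of pooled counts with exact 95% intervals for counting error are given in place of a fitted value. The level in CD4-CD8- cells was higher by 711-fold (127 to 28137) for Klra7, 602-fold (166 to 4976) for Klra4, 415-fold (142 to 2018) for Klra8 and 382-fold (105 to 3161) for Klrc2. These encode lectin-like receptors of NK cells, and the Klra genes are near-identical, so the division of reads among them is uncertain. The ratio was 403-fold (71.8 to 15952) for Ifng, the cytokine interferon gamma, and 293-fold (80.7 to 2424) for Gzmb, granzyme B. Crtam, a receptor of cytotoxic lymphocytes, had 383-fold (131 to 1858). Samd3 had 471-fold (84.1 to 18655) and Klhl4 365-fold (65.0 to 14445).

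T cell markers had 22 of 25 called lower in CD4+ cells and 1 higher (Cd5, a scavenger receptor family member, named after its values were seen), with a median of -4.72. Lck, the kinase of the T cell receptor, was at 0.935 to 2.05 CPM against 78.5 to 141 CPM (-6.13 ± 0.63, adjusted p = 4.1e-06). Cd3e, a chain of the T cell receptor complex, was at 0.507 to 0.935 CPM against 15.9 to 40.5 CPM (-5.57 ± 0.68, adjusted p = 2.4e-05). Genes of the gamma delta T cell receptor were among the largest differences. Trdc, the delta constant region, was at 0.507 to 1.47 CPM against 54.2 to 123 CPM (-6.87 ± 0.52, adjusted p = 1.5e-07), and Trgc2, a gamma constant region, at 0 to 0.267 CPM against 15.0 to 41.7 CPM (-7.95 ± 0.80, adjusted p = 3.4e-06). Trgv2, a gamma variable segment, had a ratio of 301-fold (82.8 to 2489). Trgv1 had 0 counts in the CD4+ libraries and was at least 136-fold higher in CD4-CD8- cells, with 3 counts over the group as the floor.

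The 35 NK cell markers summed to 343, 366 and 377 CPM in CD4+ and to 2290, 1267 and 1314 CPM in CD4-CD8- libraries. In CD4+ cells 27 of the 35 were under 1 CPM and 1 was at 0. The 25 T cell markers summed to 122 to 133 CPM in CD4+ and to 735, 414 and 530 CPM in CD4-CD8- libraries, with 16 of 25 under 1 CPM and 0 at 0 in CD4+ cells. CD8+ libraries had 260 to 325 CPM and 72.3 to 126 CPM for these lists. CD4-CD8- library 1 was highest for both, and 1567 genes were called without it. The part of NK and T cells in the genes lower in CD4+ cells was not tested. B cell markers had 1 of 17 called higher and 5 lower, with summed levels of 593 to 661 CPM against 579 to 619 CPM. Marginal zone macrophage and neutrophil markers had 0 called of 5 and of 3 tested in edgeR and DESeq2, and 0 at an unadjusted p under 0.05.

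**Figure D4:**
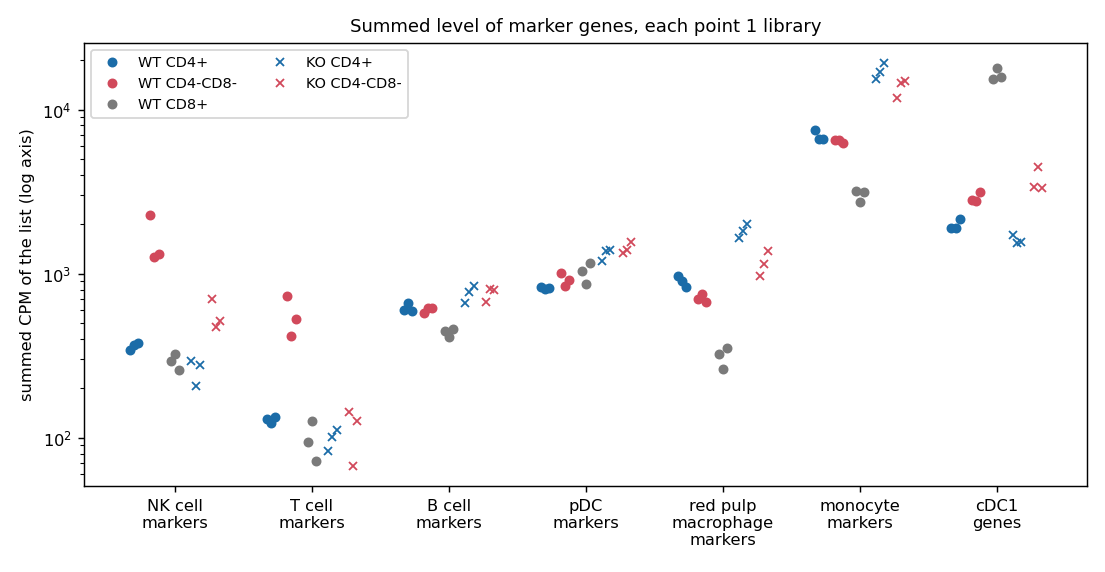
Summed CPM (log axis) of marker lists, each point 1 library, for WT (circles) and ADAM10-deficient (crosses) cells. NK cell markers reach 1267 CPM or more in WT CD4-CD8- libraries and at most 377 CPM in WT CD4+ libraries, B cell markers overlap, and cDC1 genes lie between CD4+ and CD8+ cells.

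Alox5, the 5-lipoxygenase that makes leukotrienes, was among the 15 genes with the largest reduction and is on none of the NK or T cell lists. It was at 0.0604, 0 and 0.0668 CPM against 20.9, 9.51 and 12.7 CPM, a ratio of 377-fold (104 to 3119) by pooled counts. Of these 15 genes it had the highest mean in ADAM10-deficient CD4-CD8- cells, at 36.2 CPM, with Gzma next at 8.09 CPM.

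The genes with the largest increase in CD4+ cells were of mixed function. H2-M2, a non-classical MHC class I gene, was at 254, 176 and 163 CPM against 54.3, 62.2 and 42.1 CPM (1.90 ± 0.27, adjusted p = 0.00011). Klk1, a tissue kallikrein counted among the plasmacytoid DC (pDC) markers, was at 5.68 to 7.81 CPM against 0.906 to 1.54 CPM (2.59 ± 0.55, adjusted p = 0.0032). Ly6d, found on lymphoid and pDC precursors, was at 21.8 to 28.6 CPM against 6.29 to 8.40 CPM (1.80 ± 0.25, adjusted p = 7.9e-05). pDC markers had 4 of 18 called higher and 5 lower, with summed levels of 803 to 829 CPM in CD4+ and 841 to 1004 CPM in CD4-CD8- libraries. Outside these largest increases, Adgre1, which encodes F4/80, was at 429 to 498 CPM against 196 to 237 CPM (1.15 ± 0.16, adjusted p = 6.4e-05). Red pulp macrophage markers, of which it is 1, had 4 of 17 called higher and 3 lower (11 in all with the block and 4 on log2(TPM + 1)), with summed levels of 832 to 966 CPM against 673 to 751 CPM, and the part of those cells was not tested.

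Fndc5, the precursor of irisin, was at 5.41 to 8.32 CPM against 0.842 to 1.97 CPM (2.28 ± 0.48, adjusted p = 0.003), and Gp2, a glycoprotein that binds bacteria, at 4.54 to 8.70 CPM against 1.17 to 2.49 CPM (1.92 ± 0.41, adjusted p = 0.0044). Their CD8+ means were higher, at 47.3 and 42.3 CPM. Fndc5 did not pass on transcript abundance (0.76 on log2(TPM + 1), limma adjusted p = 0.0501). Fam167a was at 13.4 to 14.8 CPM against 3.30 to 4.83 CPM (1.84 ± 0.38, adjusted p = 0.003), and Cygb, a globin, at 14.8 to 16.3 CPM against 4.29 to 4.90 CPM (1.74 ± 0.39, adjusted p = 0.0047). Pcdh1, a protocadherin, was at 17.9 to 21.3 CPM against 5.89 to 7.17 CPM (1.57 ± 0.27, adjusted p = 0.00053), and did not pass there (1.15 on log2(TPM + 1), limma adjusted p = 0.292). The other 7 of the 15 with the largest increase were Iglc3, Gm21762, Dnajc22, Gpr82, Cdh5, Ahrr and Egr3, with log2 fold changes of 1.80 ± 0.40 for Iglc3 down to 1.57 ± 0.33 for Egr3. Dnajc22 lost its call without CD4+ library 1 or CD4-CD8- library 1 (highest adjusted p = 0.0776), and Cdh5 on transcript abundance (0.27 on log2(TPM + 1), limma adjusted p = 0.283).

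The same contrast was read in ADAM10-deficient cells, where 1062 of 13355 genes were called (7.95%), 424 higher and 638 lower in CD4+ cells. Counts of genes and list members called in these cells are to be read beside those numbers. Of the 956 genes higher in WT CD4+ cells, 196 (20.5%) were called higher and 10 lower there, and 765 had the same sign. Of the 1289 lower, 364 (28.2%) were called lower and 19 higher, and 1058 had the same sign. The same-sign share of all genes was not counted. The difference between the contrasts was itself called for 503 genes (3.77% of those tested), of which 170 had the higher value in WT and 333 the lower, and for 852 genes with replicate number as a block.

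cDC1 genes had 0 of 23 called higher and 18 lower in ADAM10-deficient CD4+ cells, with Xcr1 at -3.94 (adjusted p = 2.7e-07). NK cell markers had 27 of 34 called lower, with summed levels of 205 to 292 CPM in CD4+ and 472 to 700 CPM in CD4-CD8- libraries. The WT contrast differed for 7 of them. T cell markers had 2 of 25 called lower and 1 higher, with a median of -0.25 and summed levels of 82.5 to 112 CPM and 67.5 to 144 CPM, which overlapped. The difference between the genotypes' contrasts was called for 20 of the 25. MHC class II genes had 6 of 14 called higher and 0 lower, with H2-Eb2 at 0.97 (adjusted p = 0.0004). H2-Ob, in contrast, was at 0.03 (adjusted p = 0.89), and its difference from the WT contrast passed (adjusted p = 0.009).

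ESAM-high genes had 4 of 12 called higher in ADAM10-deficient CD4+ cells, although Esam itself had means of 2.42 and 1.51 CPM and was not called (0.69, adjusted p = 0.25). Ccr2 had means of 931 and 1282 CPM, both above the WT levels. Its contrast was -0.46 (adjusted p = 0.01), and the difference from WT passed (adjusted p = 1.4e-05). Clec10a was at 0.32 (adjusted p = 0.42), with a difference from WT that passed (adjusted p = 0.0034). Notch1 (-0.30, adjusted p = 0.27) and Fcgr2b (-0.04, adjusted p = 0.92) were not called in ADAM10-deficient cells, and their differences from WT passed (adjusted p = 6.6e-05 and 0.00035).

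**Figure D5:**
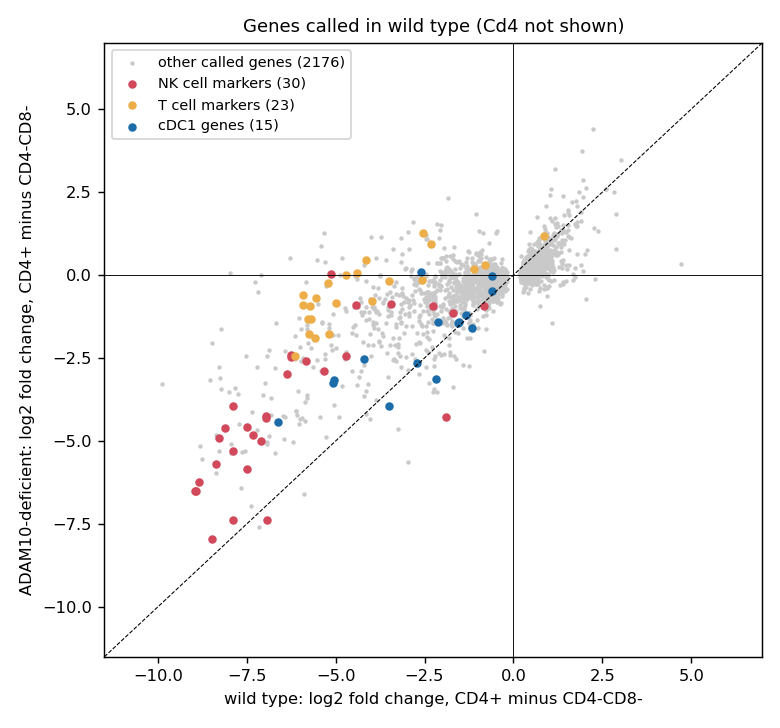
Log2 fold change of CD4+ over CD4-CD8- cells in WT (x axis) and ADAM10-deficient mice (y axis) for genes called in WT, with the dashed line at equal change. Over the whole lists, NK cell markers have a median of -6.64 in WT and -4.09 in ADAM10-deficient cells, and T cell markers of -4.72 and -0.25.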

How the data were processed

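Poly(A) RNA of sorted splenic cDC was sequenced as single-end reads, per the labels' protocols. FastQC 0.11.8, Salmon 0.14.1 and the build GRCm38 are named in the submitters' processing notes. The deposited tables give, per transcript, the authors' estimated counts (117135 transcripts) and TPM (84086 transcripts) for all 18 libraries. Strand handling is not given in the sources used here.

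Values were summed per gene symbol (24559 genes), with the names taken from the TPM table. Left out were 152 transcripts without a name there, and the transcripts with counts that the TPM table does not hold. The counts left out were at most 0.17% of a library. Counts were rounded and fitted with edgeR 4.0.16 (R 4.3.3, filterByExpr, TMM, quasi-likelihood), with 1 mean per group over all 18 libraries and 12 residual degrees of freedom. CPM use TMM-scaled totals. Adjustment was by Benjamini-Hochberg over 13355 genes, and SE was taken as the absolute log2 fold change over the square root of F. TPM were tested with limma 3.58.1 on log2(TPM + 1) and log2(TPM + 0.1), a scale that understates the change of low genes. Scripts were tested on simulated counts. Libraries of a group differed beyond sampling noise (chi-square per gene 9.36 to 14.2).

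Genes were named by this rule: the 15 largest changes in each direction among called genes with at least 5 CPM in the higher group and no overlap, up to 4 called members per list, and a set always reported. The text describes a part of those genes, and some that met the rule are not reported here. H2-Eb1, H2-Aa, H2-DMb1, Cd274, Naaa, Il2rb, Ncr1, Cd3e and Trdc were added after their values were seen. Members and lists were chosen with earlier results of these data known. Same-numbered WT CD4+ and CD4-CD8- libraries deviated together over 9795 genes (correlations 0.298, 0.223 and 0.481). Unlike-numbered ones had -0.393 to 0.158. In ADAM10-deficient cells same-numbered libraries had 0.449, 0.0721 and 0.198, and unlike-numbered ones -0.35 to 0.16. The numbers may thus pair the libraries, but the labels do not say so. The main test treats them as unpaired, and the replicate block is the alternative that uses the numbers. Alternatives were DESeq2 1.42.0, RLE and upper-quartile factors, other filters, a replicate block, a fit of only the groups compared, TPM and leaving out each library. Promoters came from a RefSeq table, and figures from Python 3.11.15 with matplotlib 3.10.9.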

Additional observations from a re-analysis of the deposited data

Results flagged for a closer look

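The difference between the WT and the ADAM10-deficient contrast was called in edgeR's quasi-likelihood test for 25 of 122 genes named in the report. Over all 13355 genes tested it was called for 503 (3.77%). Most of the 122 were named for their WT values, which the difference uses again, so the 2 shares cannot be compared as a test. For each gene the WT log2 fold change, the ADAM10-deficient log2 fold change and the adjusted p of their difference are given in that order, with 3 libraries per population and genotype. Among genes of monocytes and ESAM-low cDC2 these were Ccr2 (-2.14 and -0.46, 1.44e-05), Clec10a (-1.42 and 0.32, 0.00341), Cx3cr1 (-0.99 and 0.09, 0.0298) and Fn1 (-3.29 and -0.22, 0.0129). Among receptors and adhesion molecules they were Fcgr2b (-1.62 and -0.04, 0.000349), Fcgr3 (-1.06 and 0.63, 0.00461), Cd300lg (-2.21 and -0.04, 0.000254), Klrb1b (-3.12 and -0.38, 0.000399), Itgad (-2.59 and -0.53, 0.0054) and Cd84 (-1.69 and 0.47, 0.00126). In the Notch lists they were Notch1 (-2.41 and -0.30, 6.64e-05) and Il2ra (-3.09 and -0.80, 0.00524), and among genes of the ESAM-high subset Mmp9 (0.74 and -1.22, 0.0307). Mmp9 was not called within either genotype.

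T cell genes included Lck (-6.13 and -2.43, 0.0208) and Cd3e (-5.57 and -1.90, 0.0379), beside summed T cell marker levels of 414 to 735 CPM in WT and 67.5 to 144 CPM in ADAM10-deficient CD4-CD8- libraries. The part of those cells in the difference was not tested. Transcription factors included Ikzf3 (-3.70 and -1.74, 0.0422) and Zbtb46 (0.32 and -0.25, 0.00489). Mediators and their enzymes included Tnf (1.49 and 0.17, 0.0307), Tnfsf10 (-2.94 and -0.76, 0.00117), Ccl22 (-1.32 and -0.13, 0.0371) and Alox5 (-8.25 and -3.11, 0.00653). Alox5 had 2 counts in WT CD4+ cells, so that its fitted WT value depends on the prior count. The others were H2-Ob (0.58 and 0.03, 0.00903), a DO chain, Ifi205 (-5.05 and -3.17, 0.00204), a cDC1 gene, Ccnd1 (0.77 and 0.07, 0.0165), cyclin D1, and Pfkp (-1.17 and -0.31, 0.0144), a glycolytic enzyme.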

How the results depend on the processing

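The count of 2245 genes called between WT CD4+ and CD4-CD8- cells lay between 1527 and 2009 when any 1 library was left out, between 1565 and 2428 under DESeq2, other size factors, other filters, the restricted fit or log2(TPM), and was 2855 with replicate number as a block and 1322 on TPM scaled by TMM factors, an alternative chosen after seeing the data. The share of calls higher in CD4+ cells was 42.6% in the main test, 14.7% on log2(TPM + 1), 11.8% on log2(TPM + 0.1) and 40.9% on TMM-scaled TPM. For the ADAM10-deficient contrast, with 1062 calls, the count was 628 with only those libraries in the fit, 526 on log2(TPM + 1), 544 on log2(TPM + 0.1), 595 on TMM-scaled TPM and 673 to 960 without 1 library. For the difference of the contrasts, with 503 calls, it was 852 with the replicate block, 251 on log2(TPM + 0.1), 331 on TMM-scaled TPM and 311 to 540 without 1 library. The lowest counts came without ADAM10-deficient CD4-CD8- library 3 for the former (673; 674 without its CD4+ library 2) and without WT CD4+ library 2 for the latter (311; 315 without WT CD4-CD8- library 1). Fewer libraries entered the fits that left some out, and the cause of the other shifts was not tested. Among 122 named genes followed through these settings, no called gene changed direction. Of those not called, Adam10 was at 0.11 without WT CD4-CD8- library 3, Tbx21 at 0.01 without WT CD4-CD8- library 1, Rbpj at 0.03 on TMM-scaled TPM, and Itgam (-0.25) and Ltbr (-0.46) were below 0 on log2(TPM + 1) and on both other TPM scales. Of the 106 of these 122 genes that were called, 81 kept the call in every setting and 97 in every fit without 1 library. The replicate block ended no call among the 122. They do not hold Cd7, Mgl2, Gfra2, Heyl, Cyp7b1, Hsd3b7 and Cd5, which were also named and called. Depth limits the genes with 1 to 3 counts in CD4+ cells, whose ratios have wide counting intervals.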

Other observations

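Lists not described above were also counted in the WT contrast. Haematopoietic growth factor receptors had 3 of 24 called higher in CD4+ cells (12.5%) and 5 lower (20.8%), with a median log2 fold change of -0.01. On log2(TPM + 1) 5 of them were called. Pre-DC and progenitor markers had 3 of 11 called higher and 6 lower, with a median of -0.72. Plasma cell markers and stromal and endothelial markers each had 1 called higher and 0 lower, of 6 and 5 tested, and 2 each with replicate number as a block. The called plasma cell marker was Irf4, which is also on the list of cDC transcription factors. Its means of 149 CPM in CD4+ and 97.6 CPM in CD4-CD8- cells made up most of the summed plasma cell means, 156 and 108 CPM. On log2(TPM + 1), 0 of the stromal and endothelial markers were called. Erythroid markers had 1 of 7 called lower and 0 higher. Platelet markers and basophil and mast cell markers had 0 called in edgeR, of 3 and 2 tested, with 1 in each list at an unadjusted p under 0.05 and 0 and 1 called in DESeq2 and with the block.

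Of the 137 genes at least 8-fold lower in WT CD4+ cells, 79 were also called lower in ADAM10-deficient CD4+ cells. Of all 13355 genes tested, 638 were called lower there. The difference between the contrasts was called for 67 of the 137, against 3.77% of all genes. The 137 were chosen by their WT values, which the difference uses again, so the 67 are not a test of genotype.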
